A study of Rattus norvegicus with 20 samples.

Results

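Collagens are the rod-like proteins that give fat its supporting scaffold, and their genes were followed here in epididymal fat of the Zucker diabetic fatty (ZDF) rat. The genes were taken by symbol, as every gene whose annotated name begins with Col, a number, an a and a number, read from a probe set that names 1 gene and, where a gene had several, from the brightest. This gave 31 collagen genes among 14557 genes measured, of which 9 encode fibrillar collagens, 6 encode collagens of the basement membrane and 16 encode other types. A further 13 collagen genes of the RefSeq rat annotation, among them Col5a1, Col6a3 and Col12a1, were not analysed here.

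Total RNA from 20 male rats was hybridised to Rat Gene 2.1 ST arrays, 1 array per rat, with 5 arrays labelled as biological replicates in each of 4 groups. Lean control rats ate a standard chow from Purina, obese rats ate a stock diet for 6 weeks, and the remaining groups were named for rosiglitazone, which activates the nuclear receptor PPARgamma, and for resveratrol, a plant polyphenol. All animals were ZDF rats, entered under the strain name Zucker, housed singly under a reversed 12 h light and dark cycle with free access to food; the labels name no genotype. The sources used here do not give the dose, route or length of treatment, the diet of the treated rats or whether they were obese. They are compared below with the obese group, and between obese and lean rats body type and diet cannot be told apart.

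A collagen is a triple helix of 3 chains, each the product of one gene. Fibrillar collagens (types I, III and V in fat) align into cables, type IV forms the sheet-like basement membrane that wraps every fat cell and vessel, type VI forms beaded filaments around fat cells, and fibril-associated collagens such as type XIV sit on the surface of the cables. Before they are stable, the chains are hydroxylated in the cell and crosslinked outside it by lysyl oxidases, and matrix metalloproteinases cut them. In bulk tissue, fewer cells of a type and less RNA per cell cannot be told apart.

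All values are log2 probe set signals, so a difference of 1 is a doubling. A level of 3.10, which 95% of 1278 odorant, pheromone and taste receptor genes did not exceed, was taken as background. By this measure 16 collagens had a mean above background in at least 1 group, 12 in all 4 groups, and 15 were near background throughout. Those 15 were Col2a1, Col11a1, Col24a1 and Col27a1 among the fibrillar collagens, Col4a5 and Col4a6 in the basement membrane, and Col7a1, Col9a2, Col9a3, Col13a1, Col17a1, Col19a1, Col20a1, Col25a1 and Col28a1 among the rest. Signals of different probe sets depend on the probes as well as on the RNA, so levels are compared between groups and not between genes.

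The rats labelled as obese, treated and lean gave tissue with the markers of fat. The mean of 7 adipocyte markers lay between 9.68 and 10.3 on every array, and all 7 markers of epididymal epithelium were near background in every group. The spread of signals over genes within an array was narrowest in lean controls (SD 1.59 to 1.95), against 1.78 to 1.95 in obese, 1.81 to 1.97 in resveratrol and 1.90 to 2.01 in rosiglitazone arrays. Among the 11 collagens with a mean above 5, lean control replicate 4 was the lowest of its group in 10, lean control replicate 3 the highest in 7, and rosiglitazone replicate 2 the lowest in 9.

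The collagens of rosiglitazone-treated rats differed from those of obese rats in both directions. Col8a1, which encodes a chain of the short-chain network collagen VIII made by vascular cells, was 7.37-fold higher, and Col14a1, the fibril-associated type XIV chain, 7.59-fold lower. The type IV chains Col4a1 and Col4a2 and the type V chain Col5a3 rose, while Col4a3 and the type VI chain Col6a6 fell. The main type I and type III genes, Col1a1, Col1a2 and Col3a1, did not pass the test in either direction. Of 31 collagens, 8 passed an adjusted p of 0.05 in limma (25.8%), 5 higher and 3 lower, where 9% of all genes passed, 6.32% higher and 2.68% lower. In 7 of the 31 the rosiglitazone and obese arrays did not overlap, where this held for 10.2% of all genes. The median difference of the 31 was 0.11, against 0.04 over all genes. Over the 14 collagens whose mean over all 20 arrays was above background it was 0.39, against 0.13 over the 7013 such genes, and 7 of the 14 passed, against 15.9% of those genes.

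**Figure D1:**
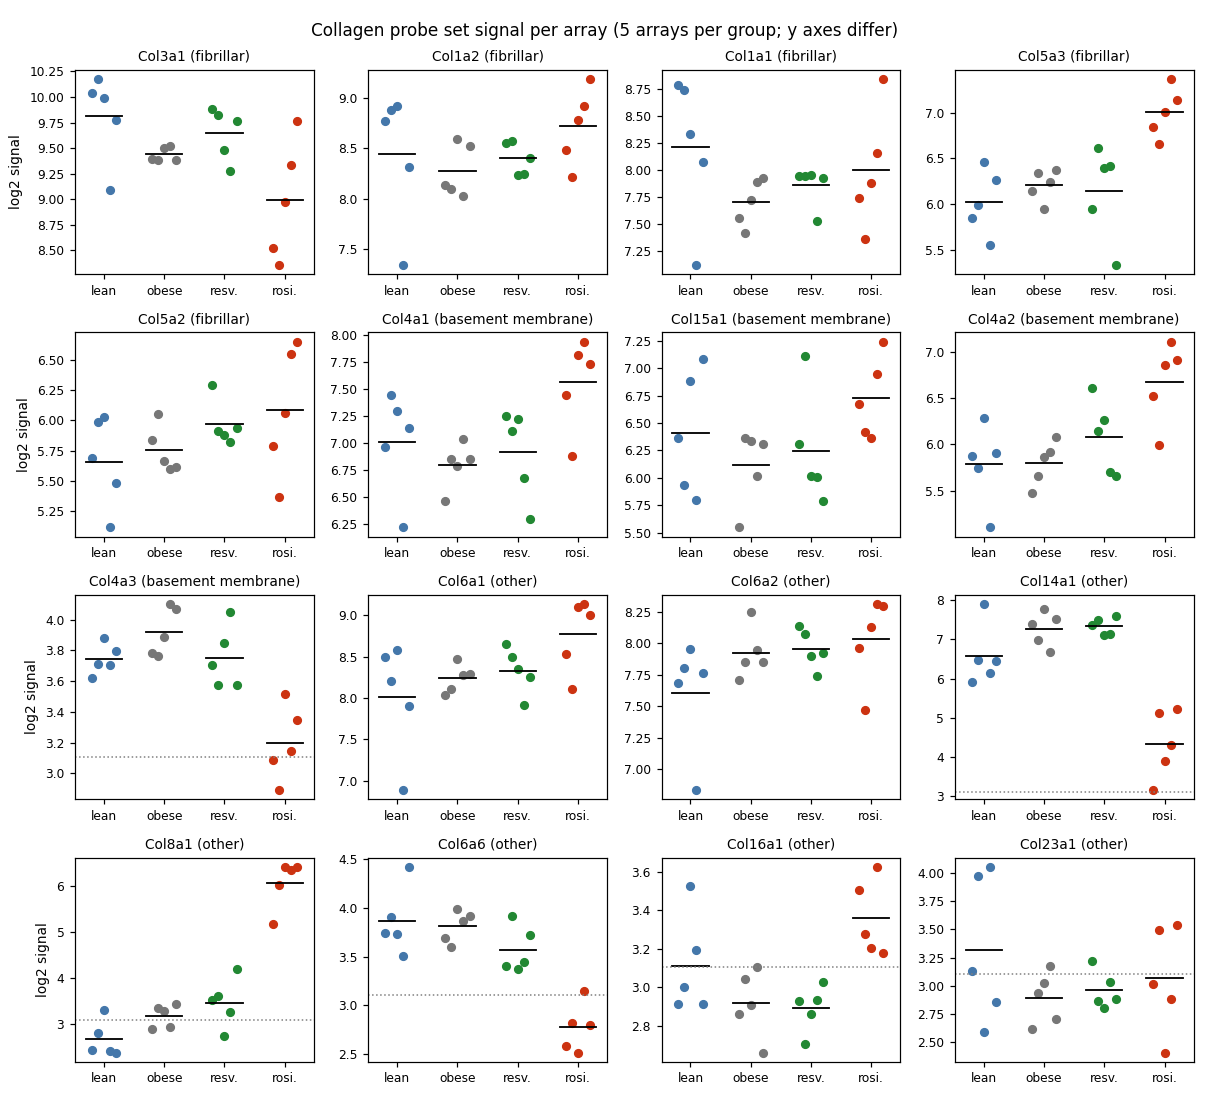
Log2 signal of each of the 16 collagens above background in at least 1 group, 1 point per array, 5 arrays per group (lean, lean control; resv., resveratrol; rosi., rosiglitazone), with a bar at the group mean and, where in range, a dotted line at the background level of 3.10. The y axes differ between panels and do not start at 0; the rosiglitazone points stand clear of all others for Col5a3, Col4a3, Col14a1, Col8a1 and Col6a6.

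Among fibrillar collagens, Col5a3 encodes the alpha 3 chain of type V collagen, a minor partner of type I fibrils. The rosiglitazone arrays read 6.85, 6.65, 7.00, 7.37 and 7.14, and the obese arrays 6.14, 6.34, 5.95, 6.24 and 6.38. Every rosiglitazone array was above every array of the other 3 groups, the nearest being resveratrol replicate 2 at 6.61. Against obese the difference was 0.79 (95% interval 0.37 to 1.22, 1.73-fold, adjusted p = 0.0125 in limma). Its type V partner Col5a2 averaged 6.08 ± 0.53 (SD, n = 5) with rosiglitazone and 5.75 ± 0.19 in obese rats, with overlapping arrays and an adjusted p of 0.39. Col11a1, of the minor fibrillar type XI, was also called higher (adjusted p = 0.00731), but it was near background in every group.

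Type III collagen, a homotrimer of Col3a1 chains, forms the fine reticular fibres of soft tissue. Col3a1 read 8.53, 8.36, 8.98, 9.33 and 9.76 with rosiglitazone, 9.40, 9.38, 9.51, 9.52 and 9.39 in obese rats, and 9.89, 9.82, 9.48, 9.28 and 9.76 with resveratrol. The obese arrays had an SD of 0.07, whereas the rosiglitazone arrays spread over more than a doubling and only replicate 5 rose above all obese arrays. The difference was -0.45 (interval -0.90 to 0.01) and did not pass (adjusted p = 0.24). Type I collagen, the main fibre protein of connective tissue, joins 2 Col1a1 chains with 1 Col1a2 chain. Col1a1 read 7.74, 7.36, 7.88, 8.16 and 8.85 with rosiglitazone and 7.55, 7.41, 7.72, 7.89 and 7.93 in obese rats (difference 0.30, interval -0.23 to 0.82, adjusted p = 0.57). Col1a2 averaged 8.72 ± 0.38 and 8.27 ± 0.26 (difference 0.44, interval -0.03 to 0.92, adjusted p = 0.28). For both genes the arrays of the groups overlapped.

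Although none of these 3 genes passed alone, type I chains stood differently against type III within each array, a contrast chosen after the values were seen and given as a description. Col1a2 minus Col3a1 was -0.04, -0.15, -0.20, -0.41 and -0.58 with rosiglitazone, and -1.26, -1.29, -0.92, -1.49 and -0.87 in obese rats. The resveratrol arrays lay between -1.36 and -1.03 and the lean control arrays between -1.74 and -1.08. No rosiglitazone array overlapped any array of the other groups, and the rosiglitazone mean stood 0.89 above the obese mean. For Col1a1 minus Col3a1 the rosiglitazone arrays lay between -1.17 and -0.79 and all others between -1.97 and -1.25, with a mean 0.74 above obese. Under quantile normalization these shifts were 0.85 and 0.64, and rosiglitazone and lean control arrays then overlapped for Col1a1 minus Col3a1.

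**Figure D2:**
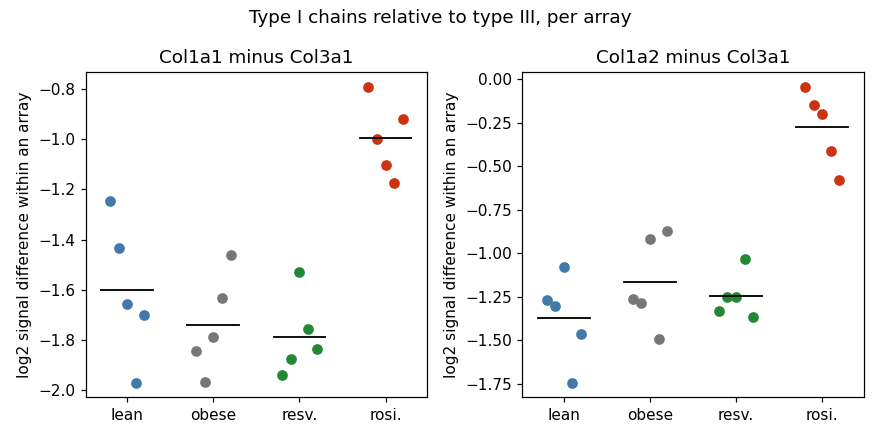
Difference in log2 signal between a type I chain and Col3a1 on the same array, Col1a1 minus Col3a1 at left and Col1a2 minus Col3a1 at right, 1 point per array and 5 arrays per group, with a bar at the group mean. The rosiglitazone arrays lie above every other array in both panels; the zero point of each axis carries no meaning, since the probe sets differ.

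The same comparison was made for every pair of the 16 collagens above background. Among the 10 pairs of fibrillar collagens, the rosiglitazone and obese arrays separated in 4, and each of these paired Col3a1 with another gene (Col1a1, Col1a2, Col5a2 or Col5a3). Over all 120 pairs they separated in 62 (51.7%), and in 33 of 91 (36.3%) once Col8a1 and Col14a1 were set aside, against 19.8% of all pairs of the 7013 genes with a mean above background. Resveratrol and obese arrays separated in 3 of the 120 pairs (2.5%), against 1.42% of all gene pairs. The 16 collagens needed a mean above background in only 1 group, whereas the 7013 genes needed it over all 20 arrays. Col16a1 and Col23a1 entered by the looser rule alone, through groups in which they were higher. The shares of collagen pairs and of all gene pairs are thus not matched and are given as a description.

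Type IV collagen of most basement membranes joins 2 Col4a1 chains with 1 Col4a2 chain, and the genes lie head to head on rat chromosome 16 with 76 bases between their start sites in the RefSeq annotation of build GRCr8. Col4a3, whose chain joins those of Col4a4 and Col4a5 in a specialised membrane known best from kidney, lies head to head with Col4a4 on chromosome 9, with 412 bases between starts; Col4a4 was not analysed here. The sequences show what lies between the starts of the pair that rose, in full, and the 250 bases before the start of the gene that fell. Both are given 5′ to 3′ on the plus strand, at chr16:84885521-84885596 and chr9:91323740-91323989, with GGGCGG, the core of the GC box, or its reverse complement in capitals.
Between Col4a2 and Col4a1: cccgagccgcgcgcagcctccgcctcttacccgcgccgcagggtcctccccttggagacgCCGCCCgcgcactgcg
Before Col4a3: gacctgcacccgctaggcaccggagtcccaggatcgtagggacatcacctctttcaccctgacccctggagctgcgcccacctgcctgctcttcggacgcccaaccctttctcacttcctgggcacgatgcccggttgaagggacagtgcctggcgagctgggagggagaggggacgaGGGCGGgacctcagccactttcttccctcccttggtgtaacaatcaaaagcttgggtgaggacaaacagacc
The shared stretch is 78.9% G and C and the stretch before Col4a3 62%.

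In windows from 250 bases before to 50 after each start, searched on both strands, GGGCGG was found for 15 of the 24 collagens with a RefSeq window, Col4a1, Col4a2 and Col4a3 among them, and in 33.1% of 33469 windows in all. A collagen counted once if any window under its symbol matched, whereas the share over all counts each window. For each motif the collagen count and the overall share are thus unlike measures. CCAAT was found for 8 of 24, Col4a1 and Col4a2 among them, and in 37.5% of all. The windows of Col4a1 and Col4a2 overlap, so these may not be separate matches. Between their starts, in the stretch printed above, CCAAT was found 0 times. TATAAA, the TATA box, was found for 3 of 24 and in 14.2% of all. AGGTCA, one arm of many nuclear receptor sites, was found for Col7a1 alone and in 16.2% of all windows. Its direct repeat, 2 copies of AGGTCA with any 1 base between them, is the form PPARgamma binds and by construction contains AGGTCA. It was found for 0 of 24 and in 0.0538% of all. With an exact match this rare, 0 was the likely count for any 24 genes, so it says nothing about binding. Col14a1, Col1a1 and Col3a1 had no window and were not searched.

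Col4a2 rose from 5.47, 5.66, 5.87, 5.92 and 6.08 on the obese arrays to 6.52, 5.99, 6.86, 7.11 and 6.91 with rosiglitazone. Only rosiglitazone replicate 2 fell within the obese range, and the difference was 0.88 (interval 0.43 to 1.33, 1.84-fold, adjusted p = 0.0099). Col4a1 read 6.47, 6.85, 6.79, 7.04 and 6.85 in obese rats and 7.44, 6.88, 7.81, 7.94 and 7.73 with rosiglitazone. Again replicate 2 alone overlapped, here with obese replicate 4, and the difference was 0.76 (interval 0.30 to 1.22, 1.69-fold, adjusted p = 0.0308). The Col4a1 call was lost in 8 of 29 alternative settings, up to an adjusted p of 0.0999 under quantile normalization, and the Col4a2 call in none.

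Col4a3 moved the other way. It read 3.79, 3.76, 3.88, 4.10 and 4.07 in obese rats and 3.09, 2.89, 3.52, 3.14 and 3.35 with rosiglitazone, so that every rosiglitazone array was below every array of the other 3 groups. The difference was -0.72 (interval -1.01 to -0.44, 1.65-fold, adjusted p = 0.000887), a size that is approximate because 2 of the rosiglitazone arrays were below the background level. Within arrays, Col4a2 minus Col4a3 averaged 3.48 ± 0.32 with rosiglitazone and 1.88 ± 0.13 in obese rats. This is a description only, since it subtracts a gene called lower from a gene called higher. Col15a1, the multiplexin that links basement membrane to the fibres beneath, averaged 6.73 ± 0.37 with rosiglitazone and 6.12 ± 0.35 in obese rats and did not pass (adjusted p = 0.15). Counted by class, 3 of the 6 basement membrane collagens changed (2 higher, 1 lower), as did 2 of the 9 fibrillar collagens (both higher) and 3 of the other 16 (1 higher, 2 lower), where 9% of all genes and 15.9% of those above background did.

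Type VIII collagen forms hexagonal lattices and is made by smooth muscle and endothelial cells of vessel walls. Col8a1 read 2.91, 3.36, 3.30, 2.95 and 3.44 on the obese arrays, 3.52, 3.61, 2.75, 3.28 and 4.21 with resveratrol, and 2.46, 2.82, 3.31, 2.44 and 2.39 in lean controls. With rosiglitazone it read 5.17, 6.01, 6.42, 6.35 and 6.41. The means of the other 3 groups lay between 2.68 and 3.47, around the background level, and the lowest rosiglitazone array stood 0.96 above the highest of them. The difference from obese was 2.88 (interval 2.38 to 3.39, adjusted p = 1.67e-08), and with the obese group so close to background the fold of 7.37 is approximate.

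Type VI collagen is assembled from Col6a1, Col6a2 and 1 larger chain. Col6a6 encodes one of the chains that can take that last place. It read 3.69, 3.60, 3.99, 3.86 and 3.91 in obese rats and 2.58, 2.82, 2.52, 3.15 and 2.80 with rosiglitazone, below every array of the other groups and, in 4 of 5 arrays, below background. Its difference from obese was -1.04 (interval -1.38 to -0.70, adjusted p = 0.000124), or about 2.05-fold. Col6a1 averaged 8.78 ± 0.44 with rosiglitazone and 8.24 ± 0.17 in obese rats and did not pass (adjusted p = 0.20), nor did Col6a2, at 8.04 ± 0.35 and 7.92 ± 0.20 (adjusted p = 0.81). Col6a1 minus Col6a6 within an array was thus 6.00 ± 0.47 with rosiglitazone and 4.43 ± 0.06 in obese rats, with no overlap. Col6a6 alone already separated these groups, so this difference is a description and adds no further result.

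Col14a1 was the collagen that fell furthest. The rosiglitazone arrays read 3.16, 5.11, 3.91, 4.31 and 5.23, against 7.38, 6.98, 7.77, 6.68 and 7.52 in obese rats and 7.36, 7.51, 7.10, 7.15 and 7.60 with resveratrol. All 5 rosiglitazone arrays were below the lowest lean control, at 5.92. They varied more among themselves (SD 0.86) than the obese (0.43) or resveratrol (0.22) arrays, and about as much as the lean control arrays (0.77). The difference from obese was -2.92 (interval -3.61 to -2.24, adjusted p = 1.5e-06). Col16a1, another fibril-associated collagen, averaged 3.36 ± 0.20 with rosiglitazone and 2.92 ± 0.17 in obese rats, around background, and missed the threshold (adjusted p = 0.052) although the arrays did not overlap. Col23a1, a transmembrane collagen, averaged 3.07 ± 0.47 and 2.89 ± 0.23 (adjusted p = 0.76).

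**Figure D3:**
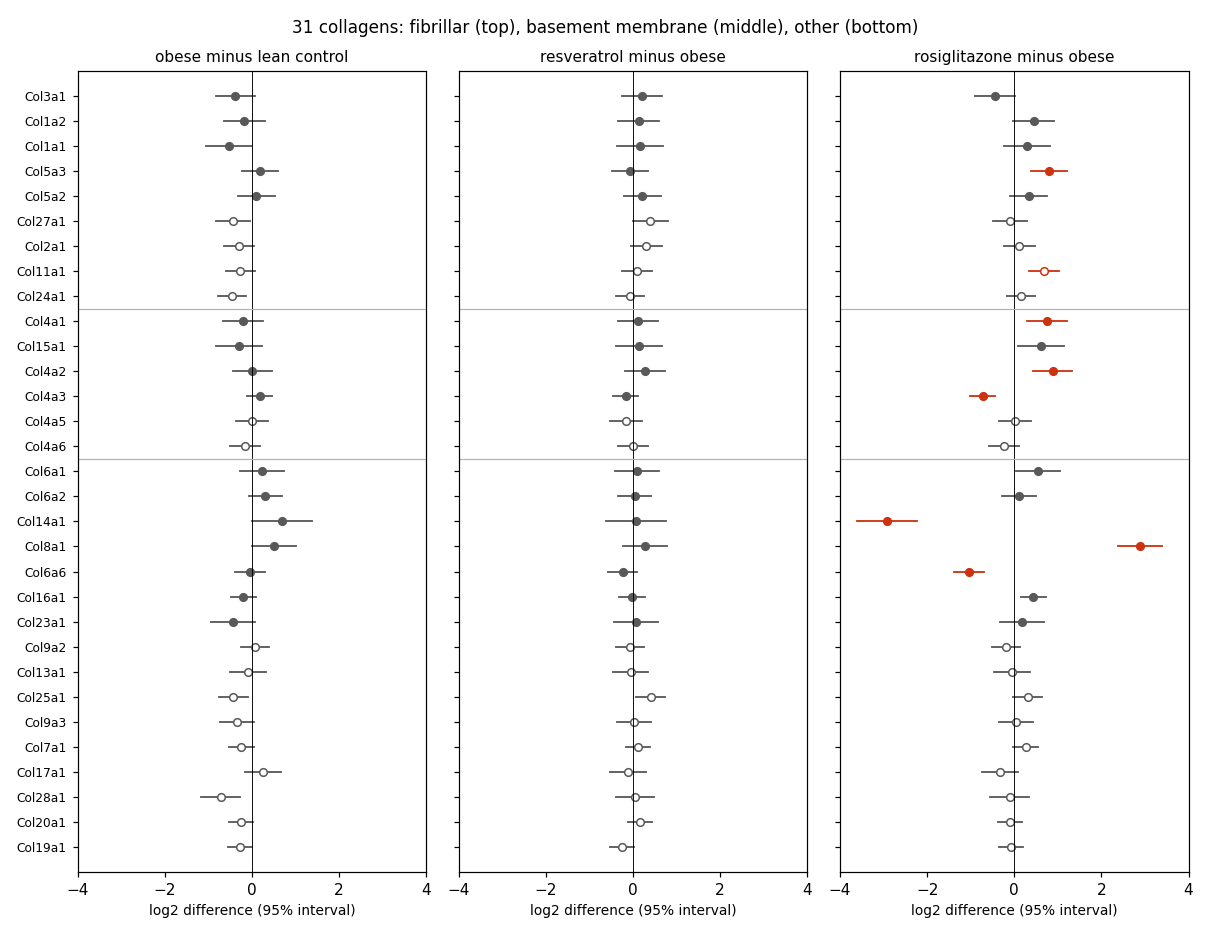
Log2 difference and 95% interval for each of 31 collagens in 3 comparisons of 5 arrays against 5, which share the obese arrays; fibrillar collagens at top, basement membrane in the middle and others below, brightest first in each class. Filled points are above background in at least 1 group, open points are near background in all, and red marks an adjusted p under 0.05, found for 8 collagens with rosiglitazone and for 0 in the other panels.

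Some markers of cells that make collagen also differed between rosiglitazone and obese rats. The mean of 9 fibroblast markers ranged from 6.25 to 7.18 on the rosiglitazone arrays and from 7.04 to 7.74 on the obese arrays; 4 of the 9 were called lower (Cd34, Lum, Dcn and Pi16), and none was near background. The mean of 9 endothelial markers ranged from 4.71 to 5.04 with rosiglitazone and from 5.41 to 6.09 in obese rats, with 6 lower and 1, Vwf, higher. Of 6 smooth muscle and pericyte markers 3 were lower and 1 higher, of 9 macrophage markers 0 passed, and of 7 adipocyte markers 1 was higher. One list, of 6 mesothelial markers, had 1 higher. The share of all genes called was 9%, and of those above background 15.9%. The part of these cell types in the collagen differences was not tested.

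Genes that process collagen were counted in lists, each to be read against the 6.32% of all genes that were higher and the 2.68% that were lower with rosiglitazone, or the 15.9% of genes above background called in either direction. Of 21 measured enzymes and chaperones of collagen maturation and crosslinking, 6 were higher and 1 lower with rosiglitazone than in obese rats, with a median difference of 0.33 against 0.04 over all genes. The 3 with the smallest adjusted p were Loxl1 and Lox, lysyl oxidases that start the crosslinks, and Plod2, which hydroxylates the lysines that form them. Lox read 6.46, 5.86, 6.52, 6.17 and 6.43 in obese rats and 7.37, 7.35, 8.61, 7.45 and 8.03 with rosiglitazone, a difference of 1.47 (2.78-fold, adjusted p = 0.00344). Plod2 read 5.85, 5.58, 6.43, 5.41 and 5.95 in obese rats and 7.07, 6.61, 8.03, 6.99 and 7.38 with rosiglitazone, a difference of 1.37 (2.59-fold, adjusted p = 0.000305). Loxl1 was 1.59 higher (adjusted p = 8.61e-05), and for none of the 3 did the groups overlap. The 1 lower member was Tll1, a protease that trims the ends of procollagens, at -0.93 (adjusted p = 0.00559), near background with rosiglitazone.

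Of 11 genes of collagen breakdown, 0 were higher and 3 lower, where 2.68% of all genes were lower. These were the gelatinase Mmp2 (-1.17, adjusted p = 0.00106) and the metalloproteinase inhibitors Timp4 (-1.34, adjusted p = 2.4e-06) and Timp3 (-0.73, adjusted p = 0.0237). The lower members thus held both a protease and inhibitors of such proteases. Timp4 read 6.90, 7.21, 7.27, 7.01 and 7.34 in obese rats and 5.57, 5.77, 5.86, 5.82 and 6.03 with rosiglitazone. Its 5 rosiglitazone arrays were the lowest of all 20.

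Of 6 collagen receptors 1 was higher and 2 lower, where 9% of all genes were called. Itga11, the integrin chain with which fibroblasts grip fibrillar collagen, was 2.47-fold lower with rosiglitazone (adjusted p = 0.000116), whereas Itga1, the chain of a receptor for type IV collagen, was 0.53 higher (adjusted p = 0.0386); Lair1, an inhibitory receptor of immune cells, was called lower but was near background. Among 17 other proteins of the fibrils 3 were higher and 2 lower, against the same 9%. The small proteoglycans Lum (-2.01, adjusted p = 0.000157) and Dcn (-1.07, adjusted p = 0.00271), which coat fibrils and limit their width, fell, and Thbs2, a matricellular protein, was 2.01 higher (adjusted p = 0.000166). Lum and Dcn are also among the 9 fibroblast markers.

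Of 12 basement membrane partners 1 was higher and 1 lower (16.7%), a share near the 15.9% of genes above background. Pxdn, the peroxidase that makes the sulfilimine bonds of type IV collagen, read 4.11, 3.70, 3.93, 3.98 and 4.38 in obese rats and 4.82, 4.93, 4.60, 5.25 and 5.04 with rosiglitazone. All rosiglitazone arrays were above all obese arrays, by 0.91 on average (1.88-fold, adjusted p = 0.000795). Lama2, the laminin chain best known from muscle basement membrane, differed by -0.80 (adjusted p = 0.0167).

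**Figure D4:**
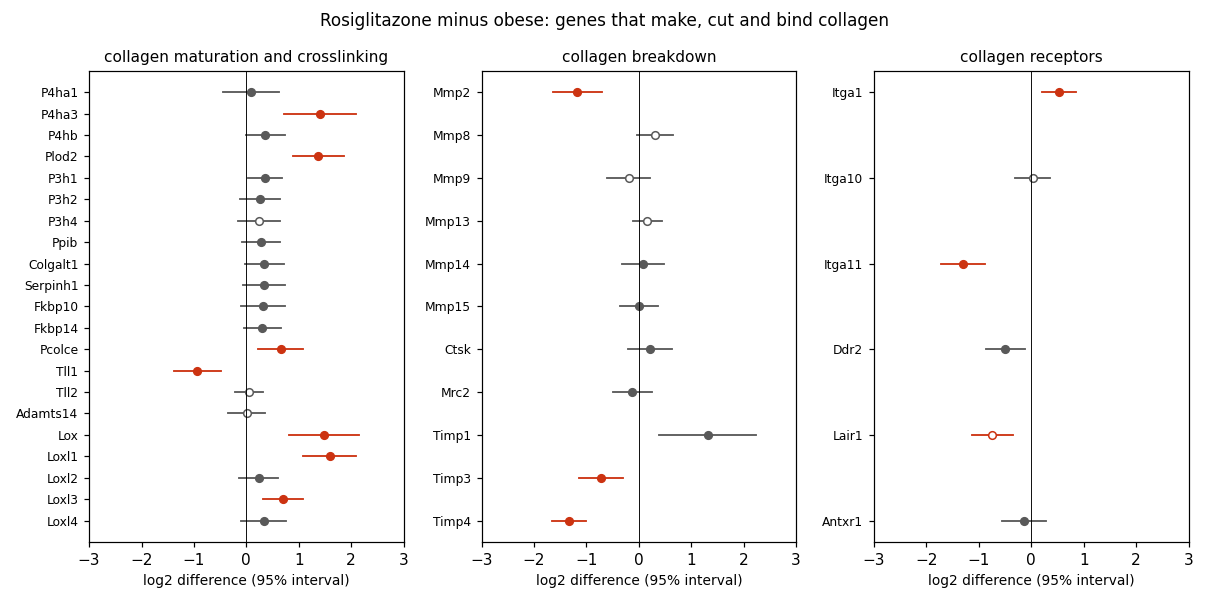
Log2 difference and 95% interval between 5 rosiglitazone and 5 obese arrays for 21 genes of collagen maturation and crosslinking, 11 of collagen breakdown and 6 collagen receptors. Red marks an adjusted p under 0.05 and open points are near background in both groups; red points lie mostly right of 0 in the first panel (6 of 7) and all left of 0 in the second (3 of 3).

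Between resveratrol and obese no collagen passed the test. In limma 0 of 31 collagens passed, as did 0% of all genes, with 2 collagens (2.82% of all genes) under an unadjusted p of 0.05, and no collagen separated the groups, which 0.598% of all genes did. The intervals of all 31 excluded a 2-fold difference and those of 19 a 1.5-fold difference, but near background, where signal compresses differences, they say little. Among the 14 collagens with a mean above background, all 14 excluded a 2-fold and 5 a 1.5-fold difference. The outermost bounds were -0.61 for Col14a1 and 0.79 for Col27a1. Col8a1 averaged 3.47 ± 0.53 with resveratrol and 3.19 ± 0.24 in obese rats, and Col14a1 7.34 ± 0.22 and 7.27 ± 0.43. None of the genes of maturation, breakdown, receptors, fibril proteins or basement membrane partners passed.

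The treated groups were also set against each other, a comparison that shares its rosiglitazone arrays with the one against obese rats. Here 7 of 31 collagens passed, 4 higher and 3 lower with rosiglitazone, where 7.56% of all genes did (5.63% higher, 1.92% lower), and 7 of 31 did not overlap where this held for 7.94%. Col8a1 (2.60, adjusted p = 1.23e-07), Col5a3 (0.86, adjusted p = 0.00795), Col11a1 (near background) and Col16a1 (0.47, adjusted p = 0.0426) were higher with rosiglitazone. Col14a1 (interval -3.69 to -2.31, adjusted p = 1.56e-06), Col6a6 (-0.80, adjusted p = 0.00256) and Col4a3 (-0.55, adjusted p = 0.0118) were lower. Col4a1 and Col4a2 stood 0.65 and 0.60 higher and did not pass (adjusted p = 0.083 and 0.10). The Col16a1 call held in 13 of 28 alternative settings and was lost, among others, without rosiglitazone replicate 1, 2 or 4, obese replicate 2 or 3 or any 1 resveratrol array. Fibroblast markers were lower with rosiglitazone in 6 of 9 and endothelial markers in 6 of 9, with 1 endothelial marker higher. Of 6 smooth muscle and pericyte markers 2 were lower and 1 higher, and of 7 adipocyte markers 2 were higher. Of 9 macrophage and 6 mesothelial markers 0 passed. Of genes above background 13.6% were called. The part of these cell types in the collagen differences was not tested.

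No collagen passed the test between obese and lean control rats either. In limma 0 of 31 passed, where 0.721% of all genes did (0.584% higher, 0.137% lower in obese), with 6 of 31 under an unadjusted p of 0.05, as were 18.2% of all genes. No collagen separated the groups, which 2.13% of all genes did. The median of the 31 was -0.19 against 0.01 over all genes, and over the 14 collagens with a mean above background it was 0.06, against 0.19 over such genes. Under quantile normalization the median of the 14 turned to -0.17, against 0.02 over such genes. Col1a1 read 8.79, 8.74, 8.34, 7.12 and 8.08 in lean controls and averaged 8.21 ± 0.68, against 7.70 ± 0.22 in obese rats. The lean arrays ranged more than 3-fold and spanned all obese arrays (difference -0.52, interval -1.04 to 0.01, adjusted p = 0.28). Col14a1 was 0.69 higher in obese rats (adjusted p = 0.27), and its lean arrays read 5.92, 6.48, 7.90, 6.14 and 6.44. Without lean control replicate 3 this difference was 1.02 with an adjusted p of 0.025, and 4 collagens passed in all. Of the processing genes only Loxl1 passed, 1.06 higher in obese rats (adjusted p = 0.0456). Of 9 macrophage markers 4 were higher in obese rats, and of 7 adipocyte markers 1 was higher and 1 lower. Of the fibroblast, endothelial, smooth muscle and pericyte, and mesothelial markers 0 passed. Of genes above background 1.37% were called.

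The lean group also served as a reference for the treated rats. Between rosiglitazone and lean control 10 of 31 collagens passed, where 25% of all genes did (18.4% higher, 6.55% lower), and 5 of 31 did not overlap, where this held for 11.1%. Higher with rosiglitazone were Col8a1 (3.39, adjusted p = 5.38e-10), Col5a3 (0.98, adjusted p = 0.000995), Col4a2 (0.89, adjusted p = 0.00402) and Col6a1 (0.76, adjusted p = 0.0238). Lower were Col14a1 (-2.23, adjusted p = 2.61e-05), Col6a6 (-1.08, adjusted p = 3.13e-05), Col4a3 (-0.54, adjusted p = 0.00506) and Col3a1 (-0.82, adjusted p = 0.00753), with Col27a1 and Col28a1 also called but near background. Col3a1 read 10.04, 10.18, 9.99, 9.09 and 9.78 in lean controls, of which replicate 4 alone fell within the rosiglitazone range. The spread of signals differed most between these groups, and with it as a covariate 5 collagens passed: the calls of Col5a3, Col4a2, Col6a1, Col27a1 and Col28a1 were lost. Quantile normalization also ended the calls of Col5a3, Col4a2, Col6a1 and Col27a1. Under it Col1a1 passed, lower with rosiglitazone (adjusted p = 0.0471 in limma), as did the near-background Col11a1, higher. The Col6a1 call was lost without lean control replicate 4 or rosiglitazone replicate 3, 4 or 5, and that of Col27a1 without lean control replicate 1, 2 or 4 or rosiglitazone replicate 1, 2, 3 or 5. In this comparison 6 of 9 endothelial and 3 of 9 fibroblast markers were lower and 1 of each higher. Of 6 smooth muscle and pericyte markers 3 were lower and 2 higher, and of 6 mesothelial markers 1 was lower. Of 9 macrophage markers 3 were higher, and of 7 adipocyte markers 1 was higher. The share of all genes called was 25%, and of those above background 40.6%. The part of these cell types in the collagen differences was not tested.

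Of the maturation and crosslinking genes 12 of 21 were higher and 1 lower than in lean controls, where 18.4% of all genes were higher and 40.6% of genes above background were called. Lox was 2.65 and Loxl1 2.64 higher (adjusted p = 1.8e-06 and 3.52e-08) and Plod2 1.49 higher (adjusted p = 5.35e-05). Between resveratrol and lean control 1 of 31 collagens passed, the near-background Col19a1, lower with resveratrol (adjusted p = 0.0378), where 2.63% of all genes passed and 0.543% were lower. That call was lost without lean control replicate 1, 2 or 4 or resveratrol replicate 1, 2, 4 or 5, and under quantile normalization. Col8a1, 0.79 higher with resveratrol, missed the threshold in the main fit (adjusted p = 0.0736 in limma). It passed under quantile normalization, with dim genes removed, and without lean control replicate 3 or resveratrol replicate 3. For 0 of 31 were the arrays apart, against 2.02% of all genes. Of 9 macrophage markers 5 were higher with resveratrol, of 9 fibroblast markers 1 was higher, and of 7 adipocyte markers 1 was higher and 1 lower. Of the endothelial, smooth muscle and pericyte, and mesothelial markers 0 passed. Of genes above background 4.65% were called. Lox and Loxl1 were 1.34 and 1.24 higher with resveratrol than in lean controls (adjusted p = 0.0273 and 0.0092). The 4 groups thus ordered for Lox by mean as lean control, obese, resveratrol and rosiglitazone, with the first 3 groups overlapping and every rosiglitazone array above them. For Col8a1 the order was the same, and the lean control, obese and resveratrol arrays overlapped.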

How the data were processed

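The deposited values were log2 signals per probe set, 1 column per array, made by the authors with RMA (background correction, quantile normalization and probe summary) per the submitters' processing notes; its version is not given in the sources used here. From 100 ng of total RNA per sample, 20 arrays were run, and all columns were mapped to samples by title. Of 36685 probe sets, those with 1 gene symbol in the platform annotation were kept, the brightest per gene by mean over 20 arrays, giving 14557 genes; by gene identifier 14415 were found in the RefSeq table of GRCr8, with 0 symbols differing. Chemosensory receptor genes, whose median was 1.54, set the background level.

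One limma model (version 3.58.1, R 4.3.3) with a mean per group was fitted to all genes and arrays without renewed normalization, and p-values were adjusted by Benjamini-Hochberg over all 14557 genes in each of 6 comparisons. Intervals are at 95%. The script was tested on simulated data. Full statistics are given for collagens under an adjusted p of 0.05 in any comparison, the 3 brightest fibrillar and basement membrane collagens, the brightest of each other subclass and Col14a1, and, from each processing list, for up to 3 called genes with the smallest adjusted p; other names were chosen after their values were seen. The collagens, lists and tests were chosen with earlier results of these data known. No further test of the lists was made.

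Alternatives were quantile normalization, array median subtraction, the array's signal SD as covariate, removal of dim genes, the mean of a gene's probe sets, only the groups compared, an intensity trend with robust moderation, array weights, a replicate block and each array left out. The number of arrays limits the precision, and p-values measure the spread between arrays labelled as biological replicates. Figures were drawn with matplotlib 3.10.9.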

Additional observations from a re-analysis of the deposited data

Results flagged for a closer look

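Both values below were marked because 1 array lay far from the other 4 of its group, by Dixon's gap test; 56 groups of 5 arrays were tested over the 14 collagens with full statistics that were not near background in all groups, and chance marks about 1 in 20, so 2 marks are within that number. Col14a1 read 7.90 in lean control replicate 3, where the other lean control arrays lay between 5.92 and 6.48. That array also gave the highest lean value for 7 of the 11 collagens with a mean above 5. Col1a1 read 7.52 in resveratrol replicate 4, where the other 4 arrays lay between 7.93 and 7.95.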

How the results depend on the processing

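Alternatives were run for the counts and for 18 collagens, those with full statistics and 4 called ones near background; no called difference among them changed direction. The 8 collagens called between rosiglitazone and obese became 7 to 9 with single arrays left out, and Col8a1, Col14a1, Col6a6, Col4a3, Col5a3 and Col4a2 passed in 29 of 29 alternatives. Such counts include settings that could change little. Each collagen had 1 probe set, so averaging probe sets left its values as they were. Leaving out an array of a group not compared, removing dim genes or changing the moderation left the log2 difference itself unchanged. The call of Col4a1 was lost under quantile normalization, with the signal SD as covariate, and without rosiglitazone replicate 3, 4 or 5 or obese replicate 1, 2 or 3. Between rosiglitazone and lean control the 10 calls became 5 with the covariate and 8 to 15 with single arrays left out, 15 without lean control replicate 3 or rosiglitazone replicate 2. Between obese and lean control the count of 0 became 1 with array weights and 0 to 4 with single arrays left out; between resveratrol and lean control the count of 1 became 0 with the covariate or with only those groups fitted, and 0 to 5 with single arrays left out, the highest in both cases without lean control replicate 3. Between rosiglitazone and resveratrol the range was 5 to 9, and between resveratrol and obese 0 to 0. Over these collagens, comparisons and alternatives, a call was lost 59 times, and a difference not called in the main fit was called 40 times. The other 2997 outcomes stood as reported, and most of these were differences called in neither fit. The causes were not tested. Titles number the rats 1 to 5 in each group, but only 6 of 30 same-numbered pairs of deviations correlated above 0.1 (-0.28 to 0.40), so the numbers were not taken as pairs. Between lean control and obese every same-numbered pair was positive, from 0.06 to 0.40, and differently numbered pairs were not computed for reference. With a replicate block the 6 counts were 0, 8, 0, 10, 1 and, between rosiglitazone and resveratrol, 6 in place of 7. Quantile normalization moved the median difference of the 7013 brighter genes from 0.13 to -0.01 between rosiglitazone and obese and from 0.31 to 0.01 between rosiglitazone and lean control, where that of the 14 collagens with a mean above background turned from 0.37 to -0.11; against obese theirs moved from 0.39 to 0.20. Near background, signal compresses differences, so folds of Col8a1, Col4a3, Col6a6 and Col16a1 are approximate.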
